A study of Oryza sativa with 12 samples.

Results

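Leaf wax genes of rice were followed in plants that overexpressed or lacked the transcription factor OsbZIP62. The 8 genes were chosen by name from the 35679 genes of the count tables, with earlier results of these data known. They are GL1-1, GL1-2, WDA1, OsGL1-4 and OsGL1 of the Glossy1 family, the elongation enzymes WSL1 and WSL4, and the regulator WR1. The name GL1-6 had been given to OS02G0621300, but the tables of the study pair this identifier with LOC_Os02g40784 and the name OsGL1-4, which is used here. The name OsGL1-6 goes in those tables to LOC_Os02g56920, which is OS02G0814200 and which the paper calls OsGL1. The study chose OsGL1 as a candidate target from these same libraries, so its levels in the overexpressor and the mutant are not independent evidence.

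Cuticular wax is the waterproof layer on the outside of leaves, and epidermal cells make it. Enzymes of the endoplasmic reticulum lengthen fatty acids to very long chains, and 3-ketoacyl-CoA synthases such as WSL1 and WSL4 carry out the first step of each round of elongation. The long chains are then turned into aldehydes and alkanes by proteins related to maize Glossy1 and Arabidopsis CER1, or into alcohols and esters. WR1 is an AP2/ERF-type transcription factor related to the Arabidopsis wax regulator WIN1/SHN1. Less wax lets leaves lose water faster, and several of these rice genes are known from plants with altered wax.

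RNA was sequenced at the 4-leaf stage under normal conditions, in 3 libraries for each of 4 groups. The source names give leaves for Kitaake, OsbZIP62V and Nipponbare, whereas those of the osbzip62 libraries name no tissue. OsbZIP62V plants carried OsbZIP62 fused to the activation module VP64 in the cultivar Kitaake and were compared with wild-type Kitaake. The osbzip62 plants carried a CRISPR/Cas9 mutation in the cultivar Nipponbare and were compared with wild-type Nipponbare. The labels name 1 line for each transgenic group, so construct and line cannot be told apart, and no source used here names the promoter that drives OsbZIP62V. Each library was made from a pool of plants. The fusion can activate genes more strongly than the native protein, so the overexpressor is not simply a plant with more OsbZIP62.

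The labels could be checked for the overexpressor. OsbZIP62 had 808 to 1173 CPM (counts relative to the library total, here scaled with TMM factors for composition) in the 3 OsbZIP62V libraries and 0.099 to 0.453 CPM in Kitaake. Its log2 fold change was 11.98 ± 0.41 (SE, n = 3 per group, edgeR adjusted p = 1.93e-05). In osbzip62 it had 0.340 to 0.994 CPM, and in Nipponbare 0.068 to 0.852 CPM. A CRISPR mutation need not lower the RNA, so this level does not check the mutant label. Total counts were 9224755 to 19759728 per library, and the smallest was Kitaake replicate 1. Chlorophyll a-b binding genes, markers of green leaf cells, were found in all libraries (3 of 3 genes in each). Their summed level was 2058 to 2487 CPM in Kitaake, 2776 to 6478 in OsbZIP62V, 8440 to 20186 in Nipponbare and 4321 to 8591 in osbzip62. OsbZIP62V, Nipponbare and osbzip62 each lay above Kitaake with no overlap, and the part of this in the wax gene results was not tested. Among all tested genes, 13.9% lay apart in this way in OsbZIP62V and 19.6% in Nipponbare. These are shares of single genes rather than of sums, and no share was computed for osbzip62 against Kitaake. All 3 genes were drawn from those the study listed as changed in OsbZIP62V or in osbzip62, so this is not independent evidence.

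For GL1-1, OsGL1, WSL1, WSL4 and WR1, Nipponbare replicate 1 and OsbZIP62V replicate 3 were the highest libraries of their groups. The same held for the epidermal, expansin and secondary wall markers below. OsGL1-4 was instead lowest in both, at 4.81 and 10.8 CPM. In Nipponbare, replicate 2 exceeded replicate 1 in the leaf markers (20186 against 12660 CPM) and the histone H4 genes (50.2 against 38.2 CPM). Roc5, a homeobox gene of the epidermis and the only epidermal marker paired with an identifier, had 174 CPM in Nipponbare replicate 1 and 0 in replicates 2 and 3. In OsbZIP62V it had 2.42, 0.37 and 85.8 CPM in replicates 1, 2 and 3. It was at 0 in all Kitaake libraries and in osbzip62 replicates 1 and 3, and had 0.97 CPM in osbzip62 replicate 2. The 2 libraries with the most Roc5 were also the 2 with the most OsGL1.

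Other markers showed a broader spread. Roc5, the expansins and the cellulose synthases were drawn from genes the study listed as changed between OsbZIP62V and Kitaake. Their differences between these 2 groups are thus not independent evidence. The summed level of 9 expansins, which loosen walls of growing cells, was 0.995 to 2.38 CPM in Kitaake and 123, 10.7 and 411 CPM in OsbZIP62V replicates 1, 2 and 3. It was 599.5, 277 and 32.5 CPM in Nipponbare replicates 1, 2 and 3 and 38.9 to 241 CPM in osbzip62. All 9 expansins had a count in OsbZIP62V replicates 1 and 3, Nipponbare replicates 1 and 2 and osbzip62 replicate 2, and 5 or 6 of the 9 had one in each Kitaake library. The 3 secondary wall cellulose synthases, CESA4, CESA7 and CESA9, all had a count in every library. Their sum was 0.398 to 18.5 CPM in Kitaake, 9.10 to 359.6 CPM in OsbZIP62V, 16.5 to 741 CPM in Nipponbare and 11.5 to 87.3 CPM in osbzip62. The highest of each transgenic or Nipponbare range fell on OsbZIP62V replicate 3, Nipponbare replicate 1 and osbzip62 replicate 2. The part of these markers in the results on wax genes was not tested, and in leaf RNA a different share of such cells and a different level of RNA per cell cannot be told apart.

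**Figure D1:**
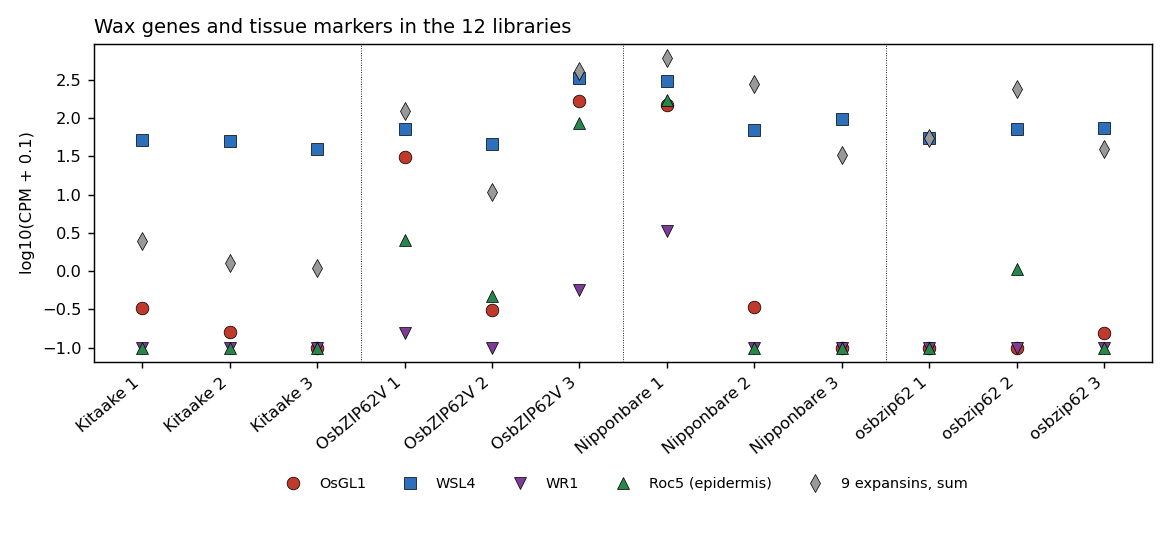
OsGL1, WSL4 and WR1 beside the epidermal marker Roc5 and the sum of 9 expansins in each of the 12 libraries, as log10(CPM + 0.1). OsGL1, WR1 and Roc5 were highest in OsbZIP62V replicate 3 and Nipponbare replicate 1, whereas the expansins were also high in Nipponbare replicate 2 and osbzip62 replicate 2.

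Between genes, levels were compared per length as deposited RPKM, in which reads are scaled to the length of the gene and the depth of the library. WSL4 had the highest mean RPKM of the 8 genes in all 4 groups, with 23.0 ± 2.47 (SD, n = 3) in Kitaake, 87.5 ± 101 in OsbZIP62V, 77.8 ± 72.7 in Nipponbare and 34.9 ± 5.49 in osbzip62. GL1-1 followed in every group, with a mean RPKM of 10.9 ± 0.86 in Kitaake, 42.8 ± 42.0 in OsbZIP62V, 29.2 ± 32.6 in Nipponbare and 14.0 ± 3.82 in osbzip62. The SD was close to or above the mean in OsbZIP62V and Nipponbare and small in Kitaake and osbzip62. GL1-2, OsGL1-4 and WSL1 were low, with mean RPKM of 0.659 to 4.16. OsGL1 came next after GL1-1 by mean RPKM in OsbZIP62V and Nipponbare, but its SD exceeded its mean in both.

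**Figure D2:**
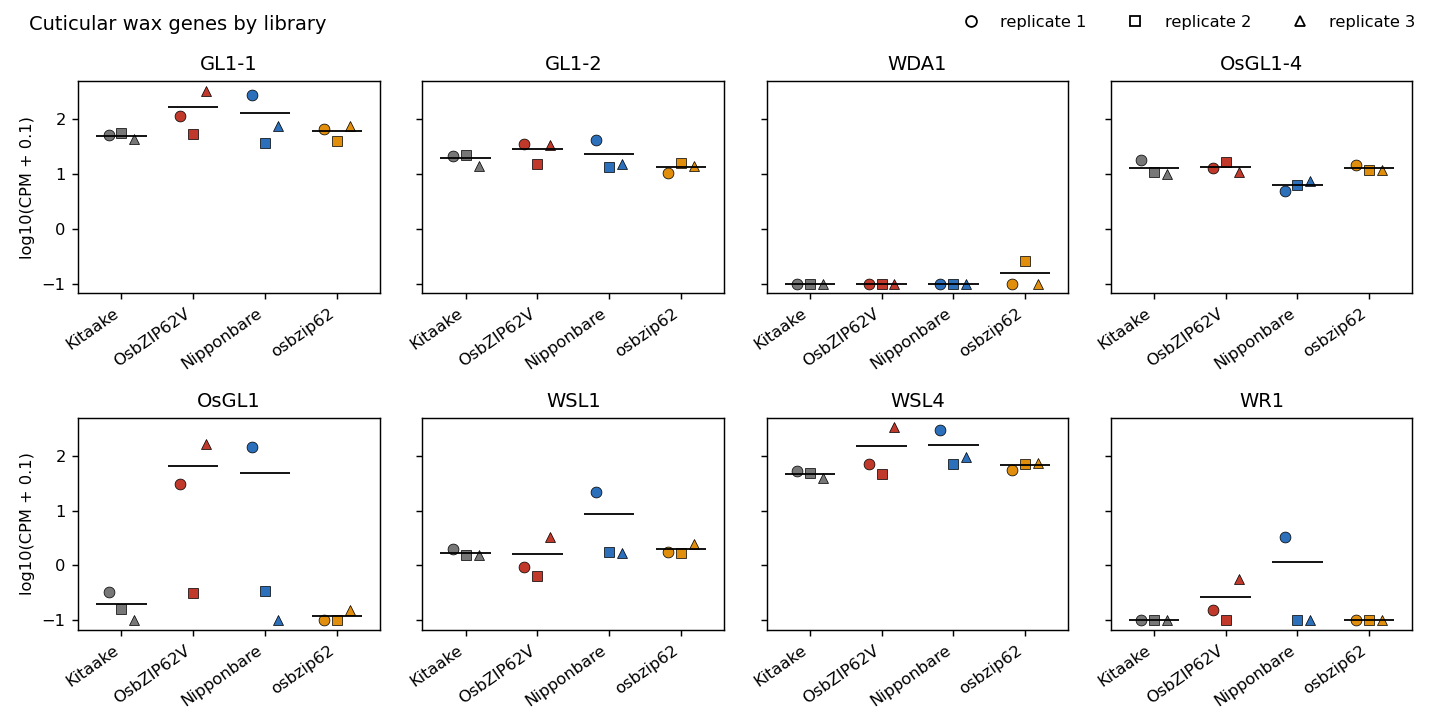
Level of each of the 8 wax genes in each library, as log10(CPM + 0.1), with the group mean as a line. OsGL1 reached 30.4 and 165 CPM in 2 OsbZIP62V libraries and 147 CPM in 1 Nipponbare library, and had at most 0.243 CPM in the other 9 libraries.

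OsGL1 (OS02G0814200), annotated as similar to CER1, showed the sharpest differences between libraries. Its read counts were 2, 1 and 0 in Kitaake replicates 1, 2 and 3, and 554, 4 and 3235 in OsbZIP62V. They were 2651, 4 and 0 in Nipponbare and 0, 0 and 1 in osbzip62. Only OsbZIP62V replicates 1 and 3 and Nipponbare replicate 1 held more than a few reads, and the ranges of OsbZIP62V and Kitaake overlapped on the CPM scale because OsbZIP62V replicate 2 was at 0.213 CPM and Kitaake replicate 1 at 0.226 CPM. Summed over the group and scaled by library size, OsbZIP62V had 1007 times the counts of Kitaake (95% exact interval 344 to 4886). Nipponbare had 2985 times the counts of osbzip62 (535 to 117942) and 811 times those of Kitaake (277 to 3936). These intervals cover counting error only and take no account of the spread between libraries. Nipponbare replicate 1 alone held 99.8% of the summed CPM of Nipponbare.

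The test of OsGL1 depended on the filter for low counts. edgeR's default filter removed the gene from each pairwise comparison, because fewer than 3 libraries reached its minimum. Without that filter, the log2 fold change of OsbZIP62V over Kitaake was 9.81 ± 2.21 (SE, edgeR adjusted p = 0.0420). DESeq2 gave 9.54 ± 2.20 (adjusted p = 3.87e-04). In the joint fit of all 12 libraries the value was 9.75 ± 3.25 and missed the threshold (edgeR adjusted p = 0.0997). With the filter and a library left out, the gene was tested in 4 fits and called in 1. That call came without OsbZIP62V replicate 2 (10.40 ± 0.96, edgeR adjusted p = 1.38e-04), where the background was 13.2%. Without Kitaake replicate 1, 2 or 3 it was not called (edgeR adjusted p = 0.187, 0.219 and 0.213). Between osbzip62 and Nipponbare the fold change without the filter was -10.90 ± 3.35 (edgeR adjusted p = 0.225), and DESeq2 gave no p for it. Folds against groups with so few counts depend on the small constant the fit adds and are no bounds. With Nipponbare replicate 1 left aside, 4 counts remained in Nipponbare and 1 in osbzip62.

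GL1-1 (OS09G0426800), of the same family, had 50.6, 55.3 and 44.0 CPM in Kitaake and 114, 53.6 and 328 CPM in OsbZIP62V. It had 277, 37.2 and 73.4 CPM in Nipponbare and 65.0, 39.9 and 76.1 CPM in osbzip62. OsbZIP62V replicates 1 and 3 lay above every Kitaake library, but replicate 2 lay within the Kitaake range. The log2 fold change of OsbZIP62V over Kitaake was 1.80 ± 0.58 (edgeR adjusted p = 0.0993), and it was 0.79 ± 0.29 without OsbZIP62V replicate 3 (edgeR adjusted p = 0.166). Without OsbZIP62V replicate 2 it was 2.20 ± 0.37 (edgeR adjusted p = 0.00312). Between osbzip62 and Nipponbare it was -1.10 ± 0.70 (edgeR adjusted p = 0.468), and 0.13 ± 0.37 without Nipponbare replicate 1. The sign of the mutant comparison thus rested on that library.

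GL1-2 (OS02G0178800) differed less between groups. It had 21.3, 21.9 and 14.0 CPM in Kitaake, 34.8, 15.1 and 33.9 CPM in OsbZIP62V, 41.2, 13.1 and 15.3 CPM in Nipponbare and 10.5, 15.7 and 13.7 CPM in osbzip62. All groups overlapped, and OsbZIP62V replicates 1 and 3 and Nipponbare replicate 1 were again the high libraries. The log2 fold change was 0.61 ± 0.34 in OsbZIP62V over Kitaake (edgeR adjusted p = 0.305) and -0.81 ± 0.45 in osbzip62 over Nipponbare (edgeR adjusted p = 0.412). Without Nipponbare replicate 1 the latter was -0.10 ± 0.22 (edgeR adjusted p = 0.881). Without OsbZIP62V replicate 2 the former was 0.92 ± 0.22 (edgeR adjusted p = 0.0186).

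OsGL1-4 (OS02G0621300) went the other way. It had 17.6, 10.8 and 9.90 CPM in Kitaake, 12.9, 16.7 and 10.8 CPM in OsbZIP62V, 4.81, 6.27 and 7.25 CPM in Nipponbare and 14.2, 11.9 and 11.7 CPM in osbzip62. The 3 Nipponbare libraries lay below the libraries of every other group, and Nipponbare replicate 1, the highest of its group for every other wax gene with reads in Nipponbare, was the lowest here. OsbZIP62V and Kitaake overlapped, with a log2 fold change of 0.13 ± 0.26 (edgeR adjusted p = 0.794). Over Nipponbare, osbzip62 was at 1.05 ± 0.21, which missed the threshold in edgeR (adjusted p = 0.0824) and passed it in DESeq2 (adjusted p = 0.00568). Without Nipponbare replicate 1 the fold change was 0.90 ± 0.20 (edgeR adjusted p = 0.127). The 2 histone H4 genes taken as markers of dividing cells also lay higher in osbzip62 than in Nipponbare with no overlap. Their sum was 108 to 199 CPM against 30.5 to 50.2 CPM, and their part in the result was not tested. Both were drawn from genes the study listed as changed in this same comparison, so their difference is not independent evidence. Groups lay apart upward for 12.8% of all tested genes.

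WDA1 (OS10G0471100), which is known from rice anthers with altered wax, was nearly silent in leaves. It had 3 counts in osbzip62 replicate 2 and 0 in the other 11 libraries. A count of 0 over the 3 libraries of Kitaake, OsbZIP62V or Nipponbare allows up to 3 counts, which is a mean of 0.0666, 0.0531 or 0.0611 CPM. No group could be told from another at this depth.

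Of the elongation enzymes, WSL4 (OS03G0220100) had 52.2, 49.4 and 39.6 CPM in Kitaake and 70.9, 45.9 and 329 CPM in OsbZIP62V. It had 300.3, 70.2 and 96.8 CPM in Nipponbare and 55.0, 71.0 and 74.9 CPM in osbzip62. A single library of each of OsbZIP62V and Nipponbare was far above all others, and every Nipponbare library lay above every Kitaake library. The log2 fold change of OsbZIP62V over Kitaake was 1.74 ± 0.67 (edgeR adjusted p = 0.156), and 0.35 ± 0.22 without OsbZIP62V replicate 3 (edgeR adjusted p = 0.408). Without OsbZIP62V replicate 2 it was 2.15 ± 0.49 (edgeR adjusted p = 0.0148). Between osbzip62 and Nipponbare it was -1.22 ± 0.53 (edgeR adjusted p = 0.309), and -0.32 ± 0.22 without Nipponbare replicate 1.

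WSL1 (OS06G0598800) was a rare transcript, with 10 to 62 counts in every library except Nipponbare replicate 1, which had 400. In CPM it had 1.92, 1.43 and 1.44 in Kitaake, 0.824, 0.532 and 3.17 in OsbZIP62V, 22.1, 1.64 and 1.57 in Nipponbare and 1.67, 1.62 and 2.32 in osbzip62. Apart from Nipponbare replicate 1, both the lowest libraries and the highest were OsbZIP62V plants, whose log2 fold change over Kitaake was 0.01 ± 0.65 (edgeR adjusted p = 0.995), which turned to -1.17 ± 0.48 without OsbZIP62V replicate 3 (edgeR adjusted p = 0.211). Between osbzip62 and Nipponbare it was -2.17 ± 1.04 (edgeR adjusted p = 0.348) and 0.22 ± 0.38 without Nipponbare replicate 1.

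The regulator WR1 (OS02G0202000) had 58 counts in Nipponbare replicate 1, 9 in OsbZIP62V replicate 3 and 1 in OsbZIP62V replicate 1. It had 0 in the other 9 libraries. All its reads thus came from the 3 libraries that held OsGL1 reads in number. Allowing 3 counts over a group at 0, its ratio was 2.66 for OsbZIP62V over Kitaake and 21.7 for Nipponbare over osbzip62. These ratios take the 10 and 58 counts of the higher groups as exact. They are thus not full lower limits even for counting error, and take no account of the spread between libraries. It failed the filter for low counts in each comparison.

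For the comparison of OsbZIP62V with Kitaake, 5 of the 8 genes passed the filter (GL1-1, GL1-2, OsGL1-4, WSL1 and WSL4). None was called higher or lower at an edgeR adjusted p under 0.05, against a background of 4.54% of 19864 tested genes called higher and 2.89% called lower. At an unadjusted p under 0.05 there were 2, GL1-1 and WSL4, where 25.2% of all tested genes were under it. DESeq2 called 1 gene higher, OsGL1, against its background of 9.03%, and none lower, against 4.53%. edgeR without the filter also called OsGL1 and no other member, against 3.04%. The median log2 fold change of the 5 tested genes was 0.61, beside 0.02 over all tested genes. For no tested gene did the groups separate fully, whereas this held upward for 13.9% and downward for 17.0% of all tested genes. The count changed most without OsbZIP62V replicate 2, in which GL1-1, GL1-2, OsGL1-4, OsGL1 and WSL4 lay within the Kitaake range and WSL1 (0.532 CPM) lay below it. Without it 4 genes were called higher (GL1-1, GL1-2, OsGL1 and WSL4), but the background rose to 13.2%.

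The comparison of osbzip62 with Nipponbare asked whether the wax genes fell when OsbZIP62 was lost. None of 5 tested genes was called lower or higher by edgeR, with a background of 0.0441% called lower and 0.377% called higher. At an unadjusted p under 0.05 there was 1, OsGL1-4, and it was higher, where 16.9% of all tested genes were under it. DESeq2 called the same gene higher against a background of 3.35% and none lower against 2.96%. Of the 5 tested genes, 4 had a negative fold change, as had 53.6% of all tested genes, with a median of -1.10 over the 5 and -0.04 over all. Without Nipponbare replicate 1, 2 of the 5 were negative and their median was 0.13. OsGL1-4 was the only tested gene whose groups did not overlap, which held upward for 12.8% of all genes. Without Nipponbare replicate 1 edgeR called none, and OsGL1-4 was again the only gene at an unadjusted p under 0.05.

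**Figure D3:**
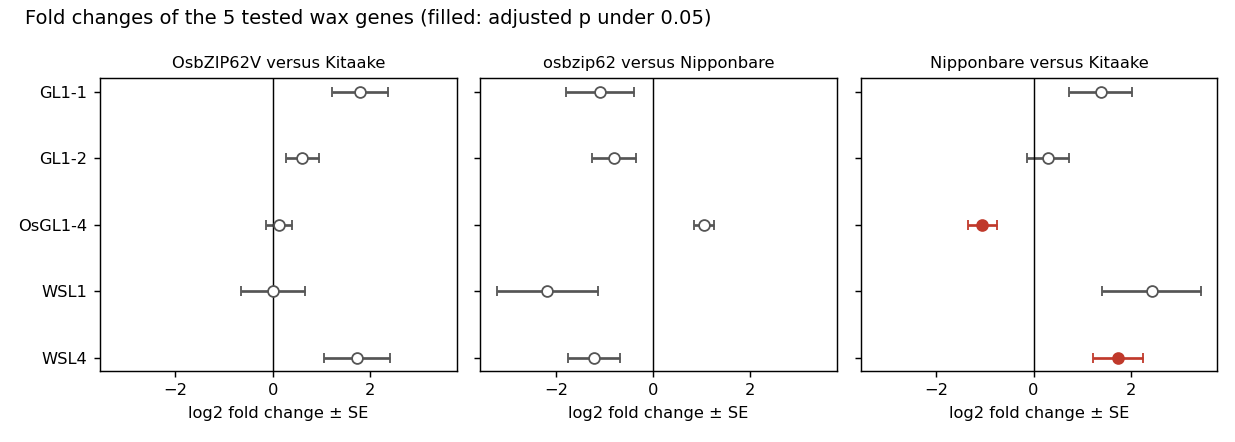
Log2 fold change with its standard error (edgeR, n = 3 libraries per group) of the 5 wax genes that passed the filter in each pairwise comparison. Filled points passed an adjusted p under 0.05, and these were OsGL1-4 (-1.05) and WSL4 (1.73) between the wild types.

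The wild types were also compared with each other, since each is the reference of a transgenic line. WSL4 was higher in Nipponbare than in Kitaake, by 1.73 ± 0.51 on the log2 scale (edgeR adjusted p = 0.0496), and OsGL1-4 was lower, with -1.05 ± 0.29 (edgeR adjusted p = 0.0397). These 2 of 5 tested genes stood against a background of 10.4% called higher and 9.51% called lower, and they were the only 2 whose groups did not overlap, against 19.6% in each direction. DESeq2 called the same 2 genes, against 13.0% higher and 10.0% lower. Without Nipponbare replicate 1, WSL4 was at 0.83 ± 0.21 and kept its call (edgeR adjusted p = 0.0308, background 8.25%), while OsGL1-4 was at -0.90 ± 0.31 and lost it (edgeR adjusted p = 0.0866). Each lost its call when any Kitaake library was left out. GL1-1 (1.38 ± 0.64), WSL1 (2.43 ± 1.02) and GL1-2 (0.30 ± 0.43) were not called (edgeR adjusted p = 0.172, 0.135 and 0.672), although WSL1 was called beside WSL4 without Nipponbare replicate 3, where the background was 18.3%. This comparison shares its libraries with the others.

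A fit of all 12 libraries tested whether the effect of OsbZIP62V in Kitaake differed from that of osbzip62 in Nipponbare. OsGL1 was called (edgeR adjusted p = 0.0348, 1 of 6 tested genes, background 3.85% higher and 3.25% lower), with a fitted difference of 20.67 ± 4.82 on the log2 scale that depends on the near-empty groups. It passed the filter of this fit only through OsbZIP62V replicates 1 and 3 and Nipponbare replicate 1, which all lie in groups this contrast weighs upward. The study also chose the gene as raised in OsbZIP62V and lowered in osbzip62, so the call is not independent evidence. OsGL1 was not called in 9 of the 12 fits that left out a library, and the difference fell to 12.13 without Nipponbare replicate 1 (edgeR adjusted p = 0.295). The difference was 2.88 ± 0.98 for WSL4 (edgeR adjusted p = 0.0875, DESeq2 adjusted p = 0.0462) and 2.83 ± 1.03 for GL1-1 (edgeR adjusted p = 0.106). DESeq2 called OsGL1 and WSL4 higher, against 9.79%, and none lower, against 5.36%. Without OsbZIP62V replicate 2 edgeR called 3 genes, OsGL1, GL1-1 and WSL4, against 8.61%. For OsGL1-4 the difference was negative, -0.96 ± 0.36 (edgeR adjusted p = 0.112). GL1-2 was at 1.36 ± 0.62 and WSL1 at 2.11 ± 1.35, neither of which was called.

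The high libraries were shared among the wax genes. In Nipponbare, replicate 1 was highest for 5 of the 6 genes that passed the filter over 12 libraries, where it was highest for 37.3% of all genes. Its share of the summed CPM of the group was 87.3% for WSL1, 71.5% for GL1-1, 64.3% for WSL4 and 59.2% for GL1-2, beside 42.0% as the median share of the highest library over all genes. In OsbZIP62V, replicate 3 was highest for 4 of 6 genes, against 39.3% of all genes. It held 84.4% of OsGL1, 73.8% of WSL4, 70.0% of WSL1 and 66.2% of GL1-1, beside a median share of 40.1%. OsGL1-4 had neither of these libraries as its highest, and for GL1-2 in OsbZIP62V replicate 1 was slightly above replicate 3. Kitaake replicate 1 and osbzip62 replicate 3 were also highest for 4 of 6 genes each. The count alone thus does not set OsbZIP62V replicate 3 apart, and the share over all genes was not computed for those libraries. In Kitaake and osbzip62 the highest library held 36.9% to 45.9% for all these genes except OsGL1, which was near 0 there.

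**Figure D4:**
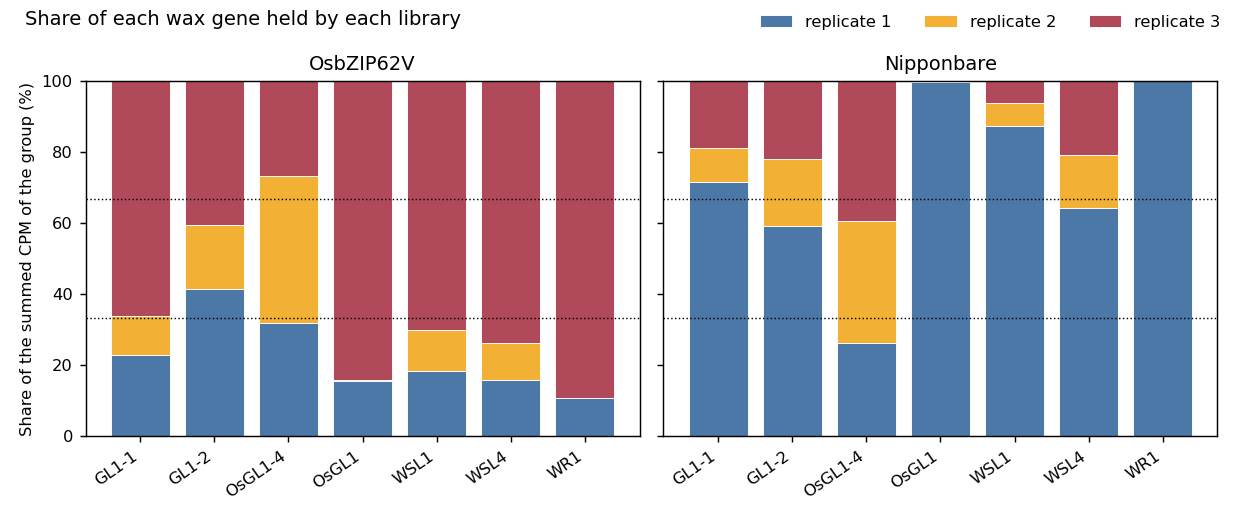
Share of the summed CPM of each wax gene held by each of the 3 libraries in OsbZIP62V (left) and Nipponbare (right), with dotted lines at equal shares. OsbZIP62V replicate 3 held 84.4% of OsGL1 and Nipponbare replicate 1 held 99.8%, whereas OsGL1-4 was spread over the 3 libraries of both groups.

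Other genes of chain elongation were taken from the tables of changed genes of the study, so they are not independent evidence of a direction. The list held 5 3-ketoacyl-CoA synthases and 1 gene similar to a very-long-chain 3-oxoacyl-CoA reductase. In OsbZIP62V over Kitaake, 2 of 2 tested genes of the list, which was drawn from genes the study listed as changed in this same comparison, were called higher, beside 4.54% of all tested genes. They were OS03G0181500 (3-ketoacyl-CoA synthase 10, 2.80 ± 0.60, edgeR adjusted p = 0.0339) and OS02G0731900 (2.64 ± 0.57, edgeR adjusted p = 0.0348). OS03G0181500 had 6.34, 9.44 and 6.62 CPM in Kitaake and 63.9, 12.2 and 73.8 CPM in OsbZIP62V. It had 58.8, 42.3 and 19.8 CPM in Nipponbare and 17.8, 42.5 and 15.8 CPM in osbzip62. All OsbZIP62V libraries were above all Kitaake libraries, while Nipponbare and osbzip62 overlapped.

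OS02G0731900 showed a like pattern at a lower level. It had 3.96, 3.04 and 3.28 CPM in Kitaake, 31.6, 5.59 and 23.7 CPM in OsbZIP62V, 31.3, 12.7 and 9.98 CPM in Nipponbare and 10.0, 11.7 and 9.63 CPM in osbzip62. Replicate 2 of OsbZIP62V was again the lowest of its group but stayed above Kitaake. Both calls were lost without OsbZIP62V replicate 3, replicate 1 or any Kitaake library. Between osbzip62 and Nipponbare 0 of 3 tested genes were called by edgeR or DESeq2, and 0 passed an unadjusted p under 0.05 in edgeR. Between the wild types 2 of 2 were higher in Nipponbare, by 2.44 ± 0.39 for OS03G0181500 (edgeR adjusted p = 0.00599) and by 2.40 ± 0.45 for OS02G0731900 (edgeR adjusted p = 0.0101), beside 10.4% of all tested genes. With a library left out the calls held in 5 of 6 fits for OS03G0181500, all but that without Kitaake replicate 3, and in 3 of 6 for OS02G0731900, none of them without a Kitaake library. In the difference of effects both were called among 6 tested, beside 3.85% of all genes, with 3.41 ± 0.88 for OS03G0181500 (edgeR adjusted p = 0.0457) and 3.36 ± 0.79 for OS02G0731900 (edgeR adjusted p = 0.0360). These calls held in 3 and 2 of the 12 fits that left out a library, and neither held with the replicate block.

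The other 4 list genes (OS04G0116800, OS06G0260500, OS10G0472900 and OS11G0432600) were at 0 in Kitaake apart from 0.0497 CPM of OS10G0472900 in replicate 3. They had 0.604 to 4.51 CPM in OsbZIP62V replicates 1 and 3 and 1.33 to 7.75 CPM in Nipponbare replicate 1. In the other Nipponbare and osbzip62 libraries they were at 0 to 2.49 CPM, the highest being OS10G0472900 in Nipponbare replicate 2, which exceeded its level in OsbZIP62V replicate 3 (2.15 CPM). A further condensing enzyme, similar to CUT1 (OS06G0262800) and named after its values were seen, had 1.92, 2.92 and 2.98 CPM in Kitaake and 9.51, 6.28 and 14.6 CPM in OsbZIP62V. It was called higher there, with 2.00 ± 0.37 (edgeR adjusted p = 0.0197), beside 4.54% of all tested genes. The study listed it as changed in this same comparison, so the call is not independent evidence. The call held only without OsbZIP62V replicate 2 or replicate 3 among the 6 fits with a library left out (edgeR adjusted p up to 0.132). The gene was also called higher in Nipponbare than in Kitaake, by 2.53 ± 0.54 (edgeR adjusted p = 0.0163, kept in 3 of 6 such fits), beside 10.4% of all tested genes. It had 14.9, 25.5 and 5.33 CPM in Nipponbare and 7.48, 19.2 and 6.52 CPM in osbzip62, so that replicate 2 was the highest of both groups, as for the expansins in osbzip62.

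The genes whose pattern over the 12 libraries was most like that of OsGL1 were sought among 21877 others, by the root-mean-square difference of centred log2 CPM. The nearest was OS04G0353600 (LOC_Os04g28520), at a difference of 0.71. It had 24.1, 0 and 50.7 CPM in OsbZIP62V, 49.3, 0 and 0 CPM in Nipponbare and 0 in the other groups. The next were OS06G0317400, a glycine-rich protein (0.78), OS11G0449600, a hypothetical protein (0.88), OS05G0226900, RePRP1.2 (0.90), and OS02G0662100, similar to Tfm5 (0.96). Among the other wax genes GL1-1 ranked 1008th, WSL4 1276th, GL1-2 1824th, WSL1 1946th and OsGL1-4 17979th by this measure. These likenesses are descriptions over 12 libraries, and most of the likeness comes from the same 3 libraries.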

How the data were processed

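RNA-seq was analysed from 12 libraries in 4 groups, with samples assigned from the labels. The source names give leaves for Kitaake, OsbZIP62V and Nipponbare and no tissue for osbzip62. The authors made TruSeq libraries, which do not mark strand, trimmed reads with SeqPrep and Sickle and aligned the rest with HISAT2 (2.1.0). The genome build was IRGSP-1.0, and HTSeq (0.6.1p2) and Bowtie2 (2.2.3) are listed in the submitters' processing notes. The annotation release and the strand setting are not given in the sources used here, so reads of overlapping or antisense genes, and of close Glossy1 or 3-ketoacyl-CoA synthase paralogs, may not be told apart. The deposited counts are whole reads per gene with no normalization. The deposited RPKM values are those counts per gene length and library total, as checked on 10879 genes, and were used for levels between genes only.

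Each pair of groups was fitted alone with TMM scaling, the default filter on low counts and the quasi-likelihood test of edgeR 4.0.16 (R 4.3.3, limma 3.58.1). P-values were adjusted by Benjamini-Hochberg over all genes tested, and genes under an adjusted p of 0.05 were called whatever their fold. The standard error is the fold change over the square root of F. CPM was scaled on the 12 libraries together. DESeq2 1.42.0 was an alternative, with its own independent filter. Ratios of summed counts have exact conditional 95% intervals, and 3 counts were allowed over a group at 0. Where a group was at 0, the counts of the higher group were taken as exact, so such ratios cover only part of the counting error. PCR reads without molecular identifiers are not independent molecules, so none of these limits covers more than counting error. P-values measure the spread between these libraries, each a biological replicate by the methods of the study. In an exact permutation test of 3 against 3 libraries, the smallest two-sided p is 0.10, so no such test was used. The pairwise edgeR fits were also run on simulated counts drawn independently for each gene. A rise shared by many genes in a single library was not simulated, so that case was not checked. Tables and plots were made in Python 3.11.15 (scipy 1.17.1, matplotlib 3.10.9, pandas 2.3.3, numpy 2.4.6).

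The 8 genes, the lists and the tests were chosen with earlier results of these data known. All 8 genes are named. Of the wider wax list, genes called in a comparison are named, up to 4 per comparison, with the 5 genes most like OsGL1 and OsbZIP62. Lists were to be taken by words from RefSeq descriptions. The reference table used here has none, so the words were applied to annotation in the study's tables of changed genes. Every list and marker gene is thus one the study listed as changed. Those loci were paired with identifiers through the fold changes printed there, used for pairing only, within a relative difference of 6e-06. Of 3123 entries, 3114 were paired once, 4 were ambiguous and 5 had no match. Lists were wider wax genes, leaf, epidermis, expansins, secondary wall cellulose synthases and histone H4 for dividing cells. No cyclin or root marker was paired. The 2 histone H4 genes summed to 14.2 to 17.8 CPM in Kitaake, 23.4 to 43.5 in OsbZIP62V, 30.5 to 50.2 in Nipponbare and 108 to 199 in osbzip62. Promoter motifs were not analysed here.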

Additional observations from a re-analysis of the deposited data

Results flagged for a closer look

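Among the 8 wax genes, edgeR found a difference between the effects in the overexpressor and in the mutant past the threshold for OsGL1, and DESeq2 for OsGL1 and WSL4 (2.87, adjusted p = 0.0462). For OsGL1 the difference of the log2 fold changes was 20.67 (edgeR adjusted p = 0.0348, DESeq2 adjusted p = 3.53e-05, 12 libraries). Kitaake held 3 counts and osbzip62 held 1, so the size of this value depends on the constant added by the fit. Of all tested genes, edgeR called 3.85% higher and DESeq2 9.79%. OsGL1 passed edgeR's filter only through OsbZIP62V replicates 1 and 3 and Nipponbare replicate 1, all in groups this contrast weighs upward. The study chose OsGL1 from these same libraries as raised in OsbZIP62V and lowered in osbzip62, so this call is not independent evidence. OsbZIP62V was above every Kitaake library in 2 of 3 libraries, and Nipponbare was above every osbzip62 library in 2 of 3, with 2651, 4 and 0 counts. Without Nipponbare replicate 1 the difference was 12.13 (edgeR adjusted p = 0.295). Of the wider list of wax genes, edgeR also called a difference for OS03G0181500 (adjusted p = 0.0457) and OS02G0731900 (adjusted p = 0.0360), beside 3.85% of all tested genes called higher. The list was drawn from genes the study listed as changed in OsbZIP62V, so these calls are not independent evidence. They held in 3 and 2 of the 12 fits that left out a library, and neither held with the replicate block.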

How the results depend on the processing

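Of 258 alternative values of fold changes, 212 kept their direction and side of the threshold, 14 turned, 22 lost and 10 gained a call, and 59 of 203 alternative counts moved by over 1.5 times. The cause of these shifts was not tested, apart from the fewer libraries of fits that left one out.

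In OsbZIP62V over Kitaake, wax genes of the 8 called higher went from 0 to 1 with DESeq2 and to 1 with no filter, and to between 0 and 4 with libraries left out. The list of other wax genes went from 2 called higher to 5 with DESeq2, 1 with the replicate block and 0 to 6 with libraries left out. Calls over all genes moved with the same settings. The share called higher was 4.54% in the main fit, 9.03% with DESeq2 and 3.04% with no filter. It was 13.2% without OsbZIP62V replicate 2, the fit that gave the 4 and the 6. With the replicate block 696 of 19864 genes were called higher. In osbzip62 over Nipponbare, wax genes of the 8 called higher went from 0 to 1 with DESeq2 and to 1 in the fit of all 12 libraries, and 0 to 1 with libraries left out. List genes called lower went from 0 to between 0 and 1 with libraries left out. Over all genes the share called higher went from 0.377% to 3.35% with DESeq2, and 476 of 21878 were called higher in the fit of all 12 libraries. Without Nipponbare replicate 3, the fit with the lower list gene, 347 of 21181 genes were called lower. In Nipponbare over Kitaake, wax genes of the 8 called higher went from 1 to 0 with DESeq2 size factors, with no filter, with the replicate block and in the fit of all 12 libraries, and 0 to 2 with libraries left out. Wax genes of the 8 called lower went from 1 to 0 with the block and 0 to 1 with libraries left out. List genes called higher went from 2 to 4 in the fit of all 12 libraries and 0 to 4 with libraries left out. Over all genes the share called higher was 10.4% in the main fit and 18.3% without Nipponbare replicate 3, the fit that gave the 2 and the 4. In the fit of all 12 libraries 2805 of 21878 genes were called higher. The share called lower was 9.51% in the main fit, and 1581 of 19749 genes were called lower with the block. For the difference of effects, wax genes of the 8 called higher went from 1 to 2 with DESeq2 and 0 to 3 with libraries left out. List genes went from 2 to 4 with DESeq2, 0 with the block and 0 to 5 with libraries left out. Over all genes the share called higher was 3.85% in the main fit and 9.79% with DESeq2, and 188 of 21878 genes were called higher with the block. It was 8.61% without OsbZIP62V replicate 2, the fit that gave the 3. Without Nipponbare replicate 3, the fit that gave the 5, 2560 of 22684 genes were called higher. On CPM by the plain library total, 1 wax gene (GL1-1) instead of 0 had groups that did not overlap in OsbZIP62V over Kitaake.

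WSL1 in OsbZIP62V over Kitaake turned from 0.01 to -0.029 with DESeq2 size factors, -0.052 with DESeq2, -0.023 with no filter, -0.35 with the replicate block, -0.063 in the fit of all 12 libraries, and lay between -1.17 and 0.40 with libraries left out. With libraries left out, OsGL1-4 in OsbZIP62V over Kitaake lay between -0.034 and 0.41. GL1-1 and WSL1 in osbzip62 over Nipponbare lay between -1.55 and 0.13 and between -2.67 and 0.22. GL1-2 in Nipponbare over Kitaake lay between -0.41 and 0.55, and the difference of effects for WSL1 between -0.31 and 2.62.

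Replicate numbers did not pair the libraries, since the correlations of same-numbered deviations ran from -0.25 to 0.38. The replicate block changed no call beyond those above: WSL4 between the wild types was then at 1.44 (edgeR adjusted p = 0.0588) and OsGL1-4 at -1.02 (edgeR adjusted p = 0.0888). Over all genes the block moved the calls in osbzip62 over Nipponbare from 77 higher and 9 lower to 0 and 0, while DESeq2 called 714 and 630. Without OsbZIP62V replicate 2, the calls in OsbZIP62V over Kitaake went from 901 higher and 575 lower to 2755 and 837. Counts at or near 0 limited WDA1, WR1 and OsGL1 in Kitaake and osbzip62.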
